A study of Mus musculus with 6 samples.

Results

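Coats of the lipid droplet and enzymes of triglyceride breakdown are described here in mouse liver after tunicamycin. The 10 genes were chosen by symbol: the perilipins Plin2, Plin3, Plin4 and Plin5, the CIDE genes Cidea, Cideb and Cidec, the lipase genes Pnpla2 and Pnpla3, and the lipase inhibitor gene G0s2. They are 10 of 19057 named genes on the array and are read by 11 of its 45281 probes, 2 of them for Plin5. RNA was taken from livers of C57Bl/6N mice aged 8 weeks and hybridised to Illumina bead arrays, on which the brightness of a bead reports how much labelled RNA copy its probe has bound. In the tunicamycin group, 3 mice were sampled 12 hours after tunicamycin was injected intraperitoneally at 2.5 mg/kg, dissolved in dimethylsulphoxide and diluted in phosphate-buffered saline with 100 mM glucose. The vehicle group of 3 received the same volume without tunicamycin. The sources used here state neither the sex of the mice nor whether replicates shared a litter or a chip, so p-values measure the spread between these arrays, part of which may be technical. Whole liver was measured, in which fewer cells of a type and less RNA per cell cannot be told apart.

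Hepatocytes store triglyceride in droplets, which have a core of neutral lipid and a coat of proteins. Perilipins cover the surface and govern the access of lipases, CIDE proteins move lipid between droplets or load it onto lipoproteins, and adipose triglyceride lipase, the product of Pnpla2, starts the hydrolysis of stored triglyceride. Tunicamycin blocks N-linked glycosylation in the endoplasmic reticulum (ER), the membrane from which droplets bud, and ER stress of this kind is known to cause fat to build up in mouse liver. The comparison of the groups asks how the droplet and lipolysis transcripts differ after this challenge.

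The droplet genes did not move as a block. Plin2, Plin4, Plin5, Cidec and G0s2 were higher after tunicamycin, and Plin3, Cideb, Pnpla2 and Pnpla3 were lower, while Cidea was not detected on any array. The transcript of the main triglyceride lipase fell 2.74-fold and that of its inhibitor rose 2.73-fold. A probe counted as detected at a detection p under 0.05, and probes detected on at least 3 of the 6 arrays were tested with limma, with Benjamini-Hochberg adjustment over all 16559 of them and a threshold of 0.05. Of the 10 member probes that passed this filter, 6 were called higher and 4 lower, and the groups did not overlap for any of the 10. The same fit called 61.5% of all tested probes, 31.8% higher and 29.8% lower, and 65.7% had groups that did not overlap. The probes of Cidec and Pnpla3 passed the filter through 1 group alone and so had to differ. The other 8 were detected on all 6 arrays, 5 of them higher and 3 lower, and 65.6% of all probes detected on every array were called. Of these 8, G0s2 rose at least 2-fold and Cideb and Pnpla2 fell at least 2-fold, as 23.9% of all probes detected on every array did in either direction. The median size of the log2 fold change was 0.90 over the 8 and 0.51 over all probes detected on every array.

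**Figure D1:**
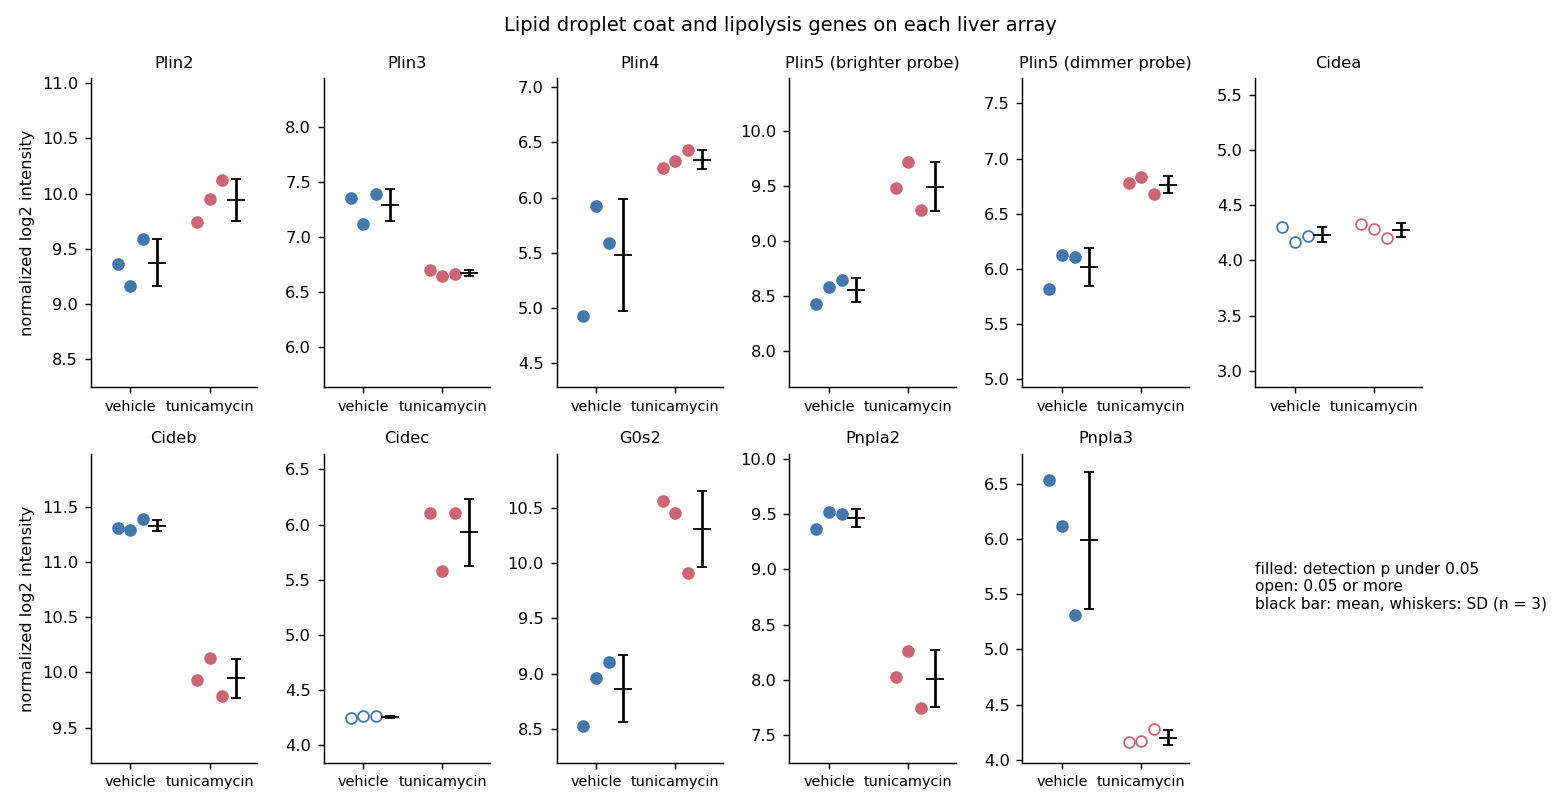
Normalized log2 intensity (vertical axis, same span in every panel) of the 11 probes on the 3 vehicle and 3 tunicamycin arrays, with the group mean and SD. Open points mark arrays on which the probe was not detected: all 6 for Cidea, the vehicle arrays for Cidec and the tunicamycin arrays for Pnpla3.

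The treatment and the tissue were checked first. Ddit3, which encodes CHOP, a factor induced by ER stress, averaged 5.70 ± 0.08 on vehicle and 13.81 ± 0.09 on tunicamycin arrays (normalized log2 intensity, SD, n = 3), and all 8 genes of a tunicamycin response list rose. Between 15503 and 16603 probes were detected on an array, and the raw median ranged from 88.9 to 96.8. Of 10 hepatocyte markers, 7 were tested, of which 4 fell and 0 rose. Apoa1, at a mean log2 intensity of 14.33 and 14.29 in vehicle and tunicamycin livers, and Cyp2e1, at 14.02 and 14.01, were bright in both groups and not called. Those that fell were Serpina1a, with a log2 fold change of -0.73, Cps1 and Ttr, each at -0.70, and Hnf4a at -0.31. The probes of Alb, Tat and Fgb did not pass the filter.

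Sequence before the annotated gene start is shown for 4 members that the results turn on: Plin2, the main coat of hepatocyte droplets, G0s2 and Pnpla2, the inhibitor and its enzyme, which moved in opposite directions, and Pnpla3, which was lost from detection. Each run holds the 250 bases before the start in RefSeq's annotation of GRCm38.p6, 5′ to 3′ on the gene's strand, and capitals mark matches on either strand to the motifs named below.
Plin2, chr4:86670060-86670309, minus strand: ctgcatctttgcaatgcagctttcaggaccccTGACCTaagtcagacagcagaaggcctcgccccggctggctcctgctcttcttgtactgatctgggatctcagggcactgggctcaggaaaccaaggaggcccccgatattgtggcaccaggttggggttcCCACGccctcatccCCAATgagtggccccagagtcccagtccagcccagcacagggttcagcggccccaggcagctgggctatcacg
G0s2, chr1:193273189-193273438, minus strand: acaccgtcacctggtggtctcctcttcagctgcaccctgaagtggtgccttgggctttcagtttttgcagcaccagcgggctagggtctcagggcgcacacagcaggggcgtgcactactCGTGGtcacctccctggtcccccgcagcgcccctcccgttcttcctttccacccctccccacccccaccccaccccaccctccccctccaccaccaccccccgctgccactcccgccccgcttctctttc
Pnpla2, chr7:141454938-141455187, plus strand: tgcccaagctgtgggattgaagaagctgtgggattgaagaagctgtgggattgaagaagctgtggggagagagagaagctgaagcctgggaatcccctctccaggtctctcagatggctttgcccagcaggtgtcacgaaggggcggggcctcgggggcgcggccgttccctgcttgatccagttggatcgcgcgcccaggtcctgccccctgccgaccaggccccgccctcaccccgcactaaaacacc
Pnpla3, chr15:84167566-84167815, plus strand: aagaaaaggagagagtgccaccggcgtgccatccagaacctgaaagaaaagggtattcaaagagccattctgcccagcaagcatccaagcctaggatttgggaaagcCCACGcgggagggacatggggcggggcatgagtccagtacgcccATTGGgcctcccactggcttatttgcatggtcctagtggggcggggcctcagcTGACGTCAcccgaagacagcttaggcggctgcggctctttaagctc

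The search covered 10 motifs in 11 such windows of 9 members, since Plin5 and Cidec each have a pair of annotated starts; the window of Cidea was not used here. CCAAT, the CCAAT box, was found in 5 of the 11 windows and in 33.8% of all 32851 promoters. CCACG, the part of the ER stress response element that factors of the unfolded protein response bind, was in 5 of 11 and in 28.3% of all. AGGTCA, the core site of nuclear receptors, was in the windows of Plin2 and Plin5 and in 14% of all. TGACGTCA, the cAMP response element, was in that of Pnpla3 alone, from -46 to -39 relative to the start, and in 1.55% of all. TATAAA was in that of Cideb (12.4% of all) and TTGCNNAA, a C/EBP core, in the downstream start of Cidec (9.56% of all). The remaining motifs were in none of the 11, namely TGATGNAA, CACGTG, the direct repeat with 1 spacer base that PPAR factors bind, and the full ER stress response element, which 3.45%, 6.02%, 0.0335% and 0.113% of all promoters hold. The direct repeat is made of copies of AGGTCA, and the full element joins CCAAT and CCACG. In Plin2, CCACG lay at -87 to -83 and CCAAT at -73 to -69, in the reverse of the element's order. The windows of Plin2, which rose, and Pnpla3, which fell, both held CCAAT and CCACG on one strand or the other, and that of Pnpla2 held no match.

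Among the perilipins, 3 transcripts rose and 1 fell. Plin2, whose protein coats droplets in most cells and is the main perilipin of hepatocytes, had normalized log2 intensities of 9.36, 9.16 and 9.59 on the vehicle arrays and 9.74, 9.95 and 10.12 on the tunicamycin arrays. The groups lay close together without overlap, with a gap of 0.15 between the highest vehicle and the lowest tunicamycin array. Plin2 rose 1.48-fold (log2 fold change 0.57 ± 0.14, SE; limma adjusted p = 0.00516). This was the smallest fitted change among the called member probes, and 21.5% of all tested probes rose by at least as much.

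Plin5, whose protein binds adipose triglyceride lipase and its coactivator on droplets of tissues that burn fat, was read by 2 probes. The brighter (ILMN_3158565) stood at 8.43, 8.59 and 8.64 on vehicle and at 9.48, 9.72 and 9.28 on tunicamycin arrays. The dimmer (ILMN_2607215) stood at 5.81, 6.13 and 6.11 on vehicle and at 6.78, 6.83 and 6.68 on tunicamycin arrays. On both probes every tunicamycin array lay above every vehicle array. The log2 fold change was 0.94 ± 0.13 by the brighter probe (adjusted p = 0.000114), a 1.92-fold rise, and 0.75 ± 0.12 by the dimmer (adjusted p = 0.000298). The 95% intervals of these values, 0.65 to 1.23 and 0.48 to 1.01, overlap.

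Plin4, a perilipin abundant in fat tissue that covers small droplets, was dim in liver. Its log2 intensities were 4.93, 5.93 and 5.59 on vehicle arrays and 6.27, 6.33 and 6.43 on tunicamycin arrays. The vehicle arrays were spread widely, replicate 1 lying lowest, and the tunicamycin arrays narrowly above them. Plin4 rose 1.82-fold (log2 fold change 0.86 ± 0.21, adjusted p = 0.00435). Without the detection filter, when 45281 probes were tested, its adjusted p was 0.0522, which ended the call, and without vehicle replicate 1 its log2 fold change was 0.59.

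Plin3, whose protein moves from the cytosol to newly formed droplets, went the other way. It stood at 7.35, 7.12 and 7.39 on vehicle arrays and at 6.70, 6.65 and 6.67 on tunicamycin arrays. The tunicamycin arrays lay close together, with an SD of 0.03, and all below vehicle. Plin3 fell 1.53-fold (log2 fold change -0.62 ± 0.11, adjusted p = 0.000693). Its raw signal was 160.2 to 202.9 on tunicamycin against 203 to 244.8 on vehicle arrays. Before normalization the groups thus nearly touched, and the raw medians of the arrays themselves ranged from 88.9 to 96.8.

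**Figure D2:**
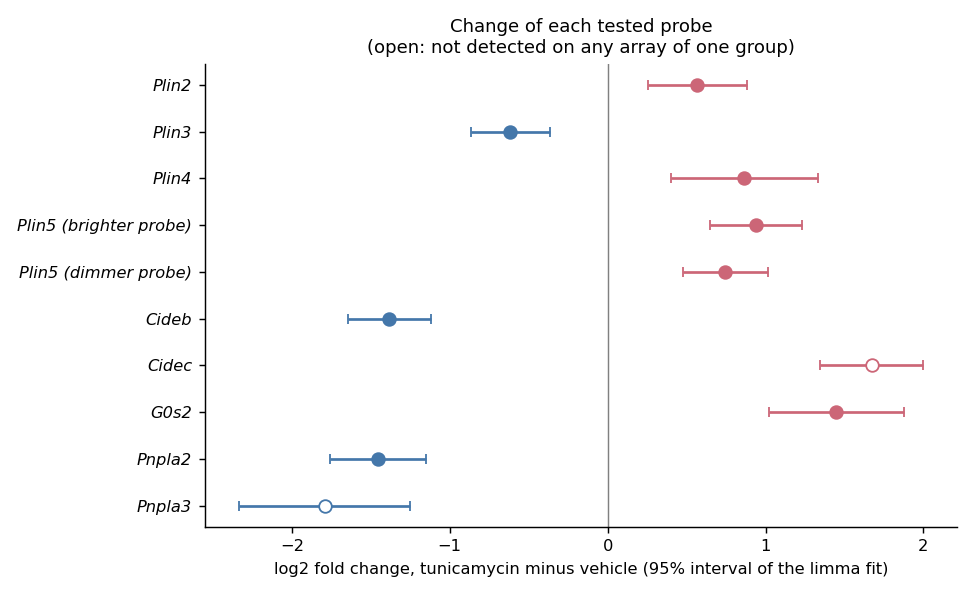
Log2 fold change (horizontal axis, tunicamycin minus vehicle) of the 10 tested probes with the 95% interval of the limma fit. The intervals of the 6 probes that rose and the 4 that fell all exclude 0. Open points mark Cidec and Pnpla3, for which 1 group was not detected. Their probes passed the filter through 1 group alone and so had to differ, so these intervals are no support.

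The CIDE genes showed 3 different patterns. Cideb, the hepatocyte member of the family, which acts in the lipid loading of very low density lipoprotein, had raw signals of 2594 to 2819.8 on vehicle arrays and 887 to 1215.8 on tunicamycin arrays. Its normalized log2 intensities were 11.31, 11.29 and 11.39 on vehicle and 9.93, 10.13 and 9.78 on tunicamycin arrays. The vehicle arrays were nearly alike, and the tunicamycin arrays all lay more than 1 below them. Cideb fell 2.61-fold (log2 fold change -1.38 ± 0.12, adjusted p = 2.67e-06), and 6.37% of all tested probes fell by at least as much.

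Cidec, also called Fsp27, promotes the fusion and growth of droplets and is known to rise in fatty liver. On the vehicle arrays its raw signals of 90, 90.5 and 90.3 were at background, with detection p-values of 0.447, 0.393 and 0.399. On the tunicamycin arrays its raw signals were 131, 121.5 and 160.6, all detected, and the normalized log2 intensities were 6.11, 5.58 and 6.10. The transcript thus passed from not detected on any vehicle array to detected on every tunicamycin array. With the vehicle arrays set to the lowest detected signal, Cidec was at least 2.63-fold higher (measured means 4.26 and 5.93, adjusted p = 3.17e-06). Its probe passed the detection filter through the tunicamycin arrays alone and so had to differ, so this p-value is no support. The fitted log2 fold change of 1.67 depends on the treatment of background, and was 0.51 without background correction and 2.43 in the second deposited table. Cidea, the family member of brown fat, had raw signals of 86.3 to 92.2 and detection p-values of 0.215 or more on all 6 arrays. It was not well above background in either group, so no fold is given.

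Of the lipolysis genes, the lipases were lower and the inhibitor higher. Pnpla2, which encodes adipose triglyceride lipase, had log2 intensities of 9.37, 9.52 and 9.50 on vehicle arrays and 8.03, 8.26 and 7.74 on tunicamycin arrays. Every tunicamycin array lay more than 1 below the lowest vehicle array. Pnpla2 fell 2.74-fold (log2 fold change -1.45 ± 0.14, adjusted p = 5.76e-06). G0s2, a small protein that binds this lipase and blocks it, stood at 8.52, 8.96 and 9.10 on vehicle and at 10.56, 10.46 and 9.91 on tunicamycin arrays. All tunicamycin arrays were higher, replicate 3 least so. G0s2 rose 2.73-fold (log2 fold change 1.45 ± 0.19, adjusted p = 7.61e-05).

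Pnpla3, a lipase-like protein of the droplet surface that is induced by feeding and insulin, was detected on vehicle arrays alone. Its vehicle arrays stood at 6.53, 6.12 and 5.32 and were far apart. The tunicamycin arrays stood at 4.16, 4.17 and 4.28, with detection p-values of 0.911, 0.895 and 0.365. The transcript was therefore lost from detection in all 3 tunicamycin livers. It was at least 2.71-fold lower (measured means 5.99 and 4.20, adjusted p = 9.1e-05). The probe passed the detection filter through the vehicle arrays alone and so had to differ, so this p-value is no support. The fitted log2 fold change of -1.79 was -0.59 without background correction and -2.84 in the second deposited table.

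Differences between members were then taken within each array, which shows unequal change but sets no probe's level against another's. G0s2 minus Pnpla2 was -0.85, -0.55 and -0.40 on the vehicle arrays and 2.54, 2.20 and 2.17 on the tunicamycin arrays. Every tunicamycin array lay above every vehicle array. The mean shift was 2.90 on the log2 scale, a 7.48-fold change of inhibitor relative to enzyme (exact two-sided permutation test, p = 0.1, adjusted p = 0.2 over 4 pairs). With 3 arrays against 3, a p of 0.1 is the smallest this test can give, so no pair could pass 0.05. G0s2 rose and Pnpla2 fell, each without overlap, so their difference had to separate and its p adds no support. Cidec minus Cideb shifted by 3.06, or by 2.78 with the undetected vehicle arrays at the lowest detected signal. The groups of this pair did not overlap either (exact p = 0.1, adjusted p = 0.2). Cidec passed the filter through the tunicamycin arrays alone and Cideb fell without overlap, so this separation and p are no support. Plin2 minus Plin5 shifted by -0.37 with overlapping groups (exact p = 0.2, adjusted p = 0.267). Pnpla3 minus Pnpla2 shifted by -0.34 with overlapping groups (exact p = 0.6), and by 0.02 with the undetected Pnpla3 at the lowest detected signal, so an unequal fall of the pair of lipases was not shown.

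**Figure D3:**
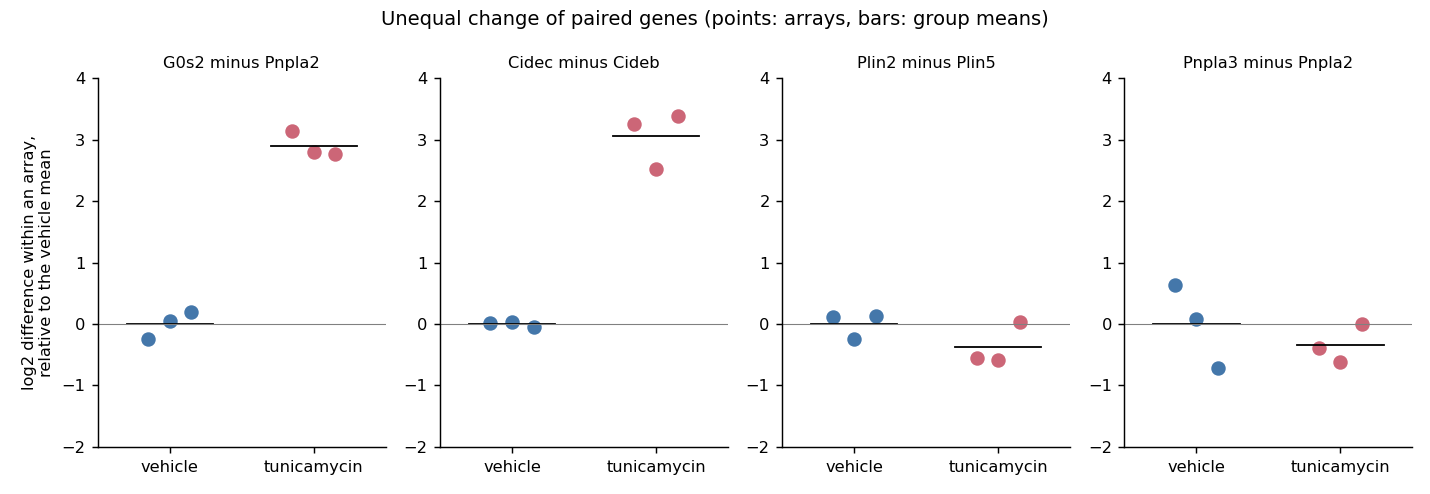
Within-array log2 differences of 4 pairs of genes, relative to the mean of the vehicle arrays (points are arrays, bars group means). G0s2 against Pnpla2 and Cidec against Cideb shifted by 2.90 and 3.06 with no overlap, while Plin2 against Plin5 and Pnpla3 against Pnpla2 overlapped. In the pairs without overlap the genes moved oppositely, each without overlap, Cidec through the filter, so these separations add no support.

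The direct partners of adipose triglyceride lipase were read from a list of other lipolysis genes, each gene by its brightest tested probe. Abhd5, the coactivator of the lipase, had log2 intensities of 7.94, 7.97 and 7.63 on vehicle and 7.15, 7.15 and 7.13 on tunicamycin arrays, and fell 1.63-fold (log2 fold change -0.70 ± 0.12, adjusted p = 0.000463). Hilpda, another inhibitor of the lipase that resides on droplets, had 6.15, 6.45 and 5.92 on vehicle and 8.25, 8.40 and 8.58 on tunicamycin arrays. Hilpda rose 4.71-fold (log2 fold change 2.24 ± 0.15, adjusted p = 4.25e-07), and by 1.58 on its other probe, also called. Lipase and coactivator thus fell while both inhibitors rose. Mgll, which completes triglyceride breakdown by cleaving monoacylglycerol, fell by 1.37 to 1.57 on the log2 scale over its 3 probes, all called. Lipe, the hormone-sensitive lipase of fat cells, was near background, with a log2 fold change of 0.13 ± 0.12 that was not called.

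Of 12 tested genes in that list, 2 rose, 6 fell and 4 were not called, with a median log2 fold change of -0.34 against -0.02 over all 9332 named genes tested, of which 31.2% were called higher and 33.1% lower. Ces1d, a hydrolase that releases stored triglyceride for secretion, fell 7.83-fold, although probes of the Ces1 family can bind more than 1 transcript. Ces1g and Aadac, hydrolases of the ER, were at least 1.76-fold and 1.57-fold lower and were not detected on any tunicamycin array. Their probes passed the filter through the vehicle arrays alone, so these falls within the count were bound to be falls. Abhd6, a monoacylglycerol lipase, rose 1.57-fold, but it was detected on 1 of 3 vehicle arrays and its vehicle mean was near background.

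Of 18 tested genes for droplet formation and other droplet proteins, 6 rose, 5 fell and 7 were not called (median 0.01). Besides Hilpda, Vcp, a segregase that extracts proteins from membranes, rose 2.46-fold, Rab18, a small GTPase of droplets, 2.04-fold, Rab8a 1.75-fold and Spg20 1.45-fold. Hsd17b11, a droplet dehydrogenase, fell 3.75-fold and Fitm1, which helps package triglyceride into droplets, 2.46-fold. Fitm1 was detected on 2 of 3 tunicamycin arrays, where its mean log2 intensity of 4.70 was near background. Ldah, a droplet hydrolase, Tmem159, a partner of seipin, and Bscl2, which encodes seipin, fell 1.56-fold, 1.51-fold and 1.29-fold. Tmem159 was dim and detected on 2 of 3 tunicamycin arrays, and its other probe, at a log2 fold change of -0.02, was not called. Seipin and its partner mark the sites at which droplets form.

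In triglyceride synthesis, 4 of 10 tested genes rose and 4 fell (median -0.27). Dgat1 and Dgat2, the enzymes of the last step, rose 1.42-fold and 1.41-fold and Agpat1 1.23-fold, all with adjusted p-values of 0.00628 or more, and Lpin3, detected on 2 of 3 vehicle arrays, rose 4.21-fold. Lpin2 and Lpin1, phosphatases of the step before, fell 7.80-fold and 4.93-fold, Agpat2 4.59-fold and Gpam, the first enzyme of the route, 2.54-fold. The count of rises was 2 in place of 4 without the detection filter, with median scaling, or without tunicamycin replicate 2.

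Of 12 transcription factors known to act on droplet genes, 9 fell, 1 rose and 2 were not called (median -0.78). Srebf1, the insulin-responsive lipogenic factor known to activate Pnpla3, fell 8.87-fold and Cebpa 5.17-fold. Foxo1, an activator of Pnpla2, fell 2.50-fold, and its other probe had a log2 fold change of -0.38, also called. Rxra, the partner of many nuclear receptors, fell 2.03-fold. Ppargc1a was at least 2.51-fold lower and was not detected on any tunicamycin array. Its probe passed the filter through the vehicle arrays alone, so its fall within the count was bound to be one. Ppard rose 1.44-fold. Pparg, which activates Cidec in fatty liver, had a log2 fold change of 0.02 ± 0.13 and was not called. Whether these factors had a part in the members' changes was not tested.

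**Figure D4:**
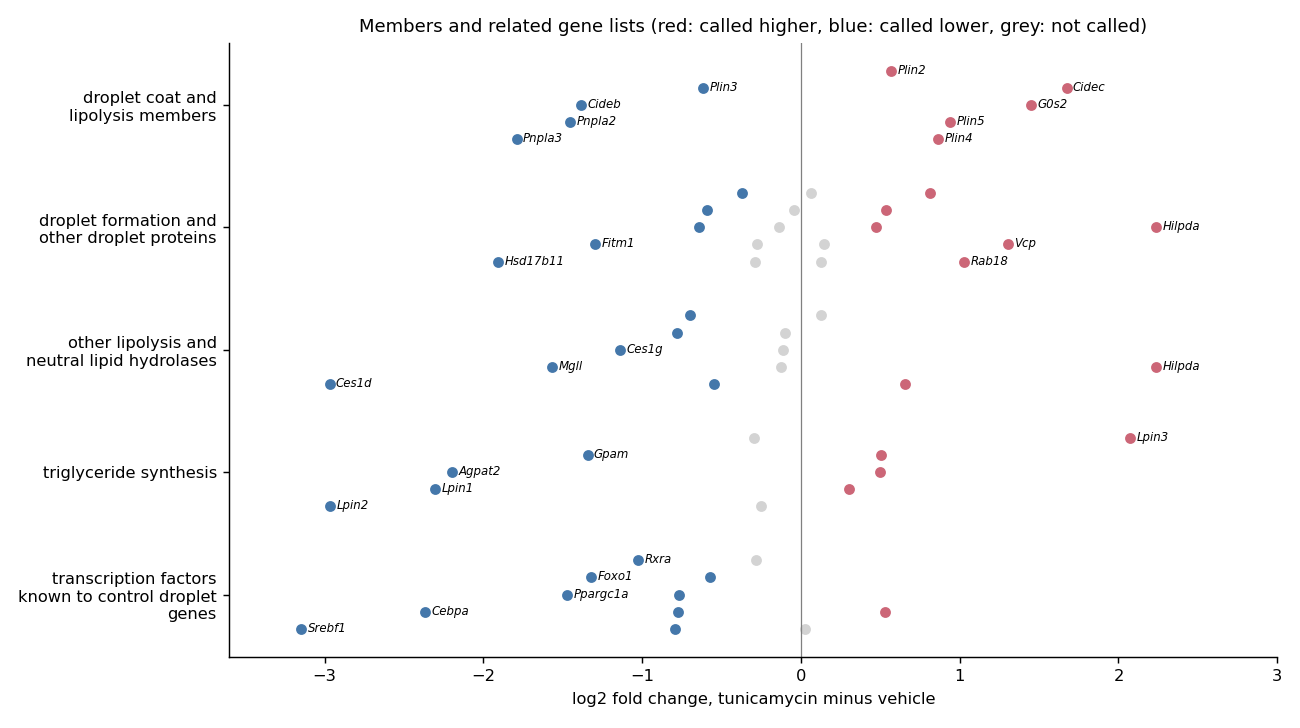
Log2 fold change (horizontal axis) of the 9 tested members and of 4 lists of related genes, each gene by its brightest tested probe, with names beside all members and beside other genes past 2-fold. Pnpla2 stands at -1.45 and G0s2 at 1.45, and Hilpda at 2.24 appears in the 2 lists that hold it.

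Other cell types of liver also carry droplet genes, so their markers were set beside these results. Of 9 adipocyte markers on the array, 5 (Adipoq, Plin1, Retn, Fabp4 and Ucp1) were detected on no array, and the summed log2 intensity of the 9 was 43.60 to 43.86 on vehicle and 42.69 to 42.85 on tunicamycin arrays. Of the 2 that were tested, Lpl, a lipoprotein lipase also made outside fat tissue, was detected on all 6 arrays and fell 1.92-fold (log2 fold change -0.94 ± 0.18, limma adjusted p = 0.000947), and Lipe was not called. The other 7 did not pass the filter. Of 10 tested Kupffer cell and macrophage markers, 9 fell and 0 rose, and the summed log2 intensity of 11 markers was 80.62 to 85.14 on vehicle arrays against 65.12, 67.81 and 76.37 on tunicamycin replicates 1, 2 and 3. Without tunicamycin replicate 3, which stood apart in these markers, every member call remained on the probes that passed the filter of 6 arrays, 6 higher and 4 lower. This keeps replicates 1 and 2, which had the lowest sums, so it cannot bear on the part of the macrophage shift. Of 8 stellate cell and fibroblast markers 5 fell, with summed intensities over 10 genes of 65.21 to 65.70 on vehicle and 61.28 to 61.78 on tunicamycin arrays. Of 7 endothelial markers 3 fell, with sums over 8 genes of 57.60 to 58.12 and 54.89 to 56.46. The hepatocyte sums over 10 genes were 101.2 to 102.6 and 99.07 to 100.1. Cholangiocyte markers had 0 of 2 called, with Krt19 and Epcam detected on no array, and sums over 4 genes of 20.72 to 21.06 and 20.22 to 21.35. The part of the macrophage, stellate, endothelial and hepatocyte shifts in the members' changes was not tested.

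The genes whose pattern over the 6 arrays lay closest to Cidec, the member with the highest fitted log2 fold change, were Mrto4, Lrrfip2 and Ranbp1, at Euclidean distances of 0.23, 0.23 and 0.25 on the log2 scale after subtraction of each gene's vehicle mean. Closest to Pnpla3, the member with the lowest fitted log2 fold change, were Tcim, Uba7 and Pros1, at 0.51, 0.53 and 0.53. All 9332 named genes tested were compared, and their median distance to Pnpla3 was 3.22. Both choices rest on arrays not above background. At their bounds Cidec (1.39) and Pnpla3 (1.44 lower) lay below the sizes of G0s2 and Pnpla2, and without background correction G0s2 rose by 1.29 against 0.51 for Cidec and Pnpla2 fell by 1.19 against 0.59 for Pnpla3.

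**Figure D5:**
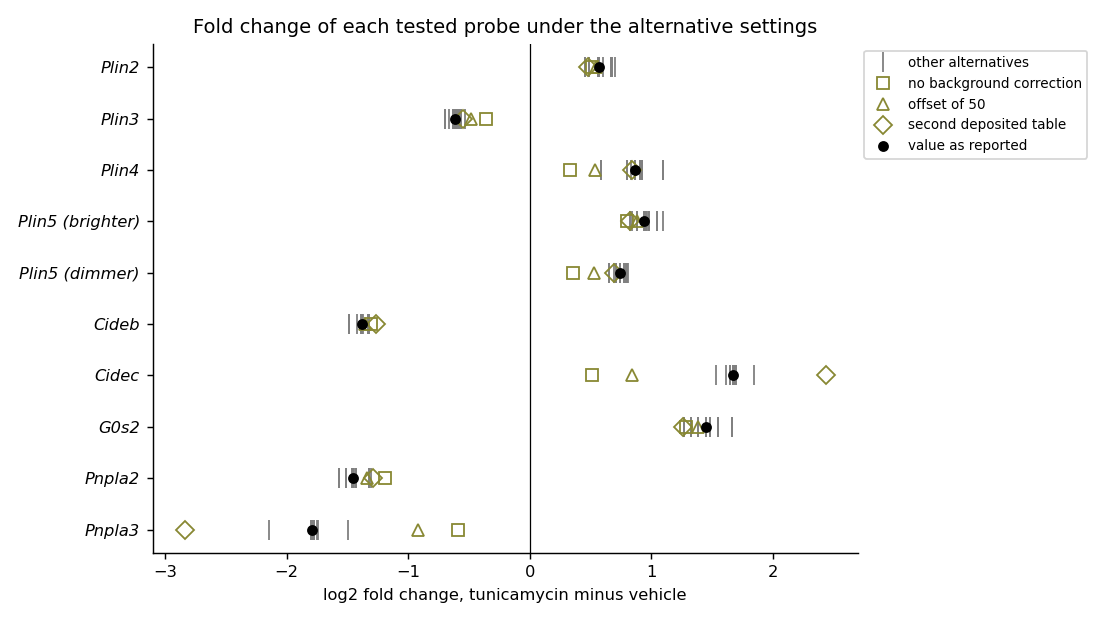
Log2 fold change (horizontal axis) of the 10 tested probes as reported (black) and under each alternative setting that gave a value. No value crossed 0, and the widest ranges are those of Cidec, 0.51 to 2.43, and Pnpla3, -2.84 to -0.59, each undetected in 1 group. The direction of Cidec and Pnpla3 was bound by the filter and is no support.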

How the data were processed

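Bead intensity was deposited as an average signal per probe and array, as its column names say, for 45281 probes, and its values show neither background subtraction nor normalization. The deposited detection p-values, per the file headers, stand beside each signal and share 1 column name; the column to the right of a signal was used, and in 6 of 6 arrays its ranks followed that signal best. The other deposited table holds intensity on a linear scale that was background-subtracted and quantile-normalized, as read from its values, and served as an alternative as log2(value + 16). The scanner is not given in the sources used here. No other value columns were left out (0).

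In limma 3.58.1 (R 4.3.3), background was corrected by normexp from the detection p-values, 16 was added, and arrays were quantile-normalized. The log2 was taken afterwards. The offset understates changes of dim genes. Of the probes, 16559 passed the filter. Groups were compared with lmFit and eBayes, and every adjusted p of a gene comes from this two-sided test. Gene names came from the platform annotation, matched by Entrez ID to RefSeq's GRCm38.p6 table (11 of 11 member probes); 34885 probes had 1 symbol, 18 several and 10378 none here. The fit was checked on simulated data. A gene not detected in a whole group is given as "at least N-fold", the dim arrays taking the higher of their own value and the lowest detected value. The number of arrays limits the precision.

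All 10 members were named whatever their result, and from each list up to 5 genes with the largest called change in each direction. Lipe, Pparg, Pnpla5 and marker genes beyond this rule were named where a member's result is read beside them. The members and lists were chosen with earlier results of these data known. Alternatives covered background, offset, normalization, filter, probe choice, source table, variance model, replicate block and leaving out each array.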

Additional observations from a re-analysis of the deposited data

How the results depend on the processing

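Over 23 alternatives, 222 values were obtained for the 10 tested member probes. Of these, 221 kept direction and call, 1 lost the call (Plin4 without the detection filter, adjusted p = 0.0522, where 45281 probes share the adjustment) and 0 changed direction. Cidec and Pnpla3 gave 20 of the values each. Their probes passed the filter through 1 group alone and so had to differ, so their part of the count is no support. Calls were 5 or 6 higher and 3 or 4 lower when an array was left out. Cidec was not tested without any 1 tunicamycin array, nor Pnpla3 without any 1 vehicle array, because detection on 3 arrays was then out of reach. With the probes of the full filter kept, an alternative chosen after seeing the data, the counts were 6 and 4 each time. The related genes, 12 higher and 24 lower of 51, ranged from 10 to 12 and from 21 to 26 when an array was left out. The lower ones include Aadac, Ces1g and Ppargc1a, which passed the filter through the vehicle arrays alone. Without background correction the log2 fold change was 0.33 for Plin4, 0.36 for the dimmer Plin5 probe and -0.36 for Plin3.

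The within-array shift of G0s2 minus Pnpla2 was 2.48 without background correction and 2.55 in the second deposited table, and 2.79 to 2.99 when an array was left out. That of Cidec minus Cideb was 1.82, 2.20 and 3.70 without background correction, with an offset of 50 and in the second table, and 2.86 to 3.34 when an array was left out. That of Pnpla3 minus Pnpla2 changed sign, to 0.60 without background correction, 0.42 with an offset of 50 and 0.0136 without vehicle replicate 1, and was -1.55 in the second table and -0.72 to 0.0136 when an array was left out. That of Plin2 minus Plin5 was -0.57 to -0.26 when an array was left out. The cause was not tested. Same-numbered arrays of the groups had deviations that correlated at 0.127, 0.053 and 0.019, which does not pair them; with the replicate block 5290 probes were called higher and 4959 lower in place of 5263 and 4928, and the member counts were 6 and 4.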

Other observations

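Genes next to the members in the gene order of GRCm38.p6 were looked up after the members' values were seen. Of 16 flanking genes that are no members, 12 were tested, of which 3 rose and 3 fell. Among all 9332 named genes tested, 31.2% were called higher and 33.1% lower. Plin4 and Plin5 are neighbours on chromosome 17 and both rose, while Lrg1, on the other side of Plin5, had a log2 fold change of -0.47 ± 0.11 (SE; limma adjusted p = 0.00423) and Hdgfl2, on the other side of Plin4, of 0.48 ± 0.12 (adjusted p = 0.00426). Plin3, on the same chromosome, fell.

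Pnpla5, a patatin-family gene that lies next to Pnpla3 on chromosome 15, showed the pattern of its neighbour at a lower signal. Its brighter probe had log2 intensities of 5.35, 5.12 and 5.06 on vehicle arrays, all detected, and 4.34, 4.43 and 4.25 on tunicamycin arrays, none detected. The other probe had 5.14, 4.59 and 5.10 against 4.25, 4.21 and 4.25, with the same split in detection. Pnpla5 was at least 1.54-fold lower by the brighter probe (adjusted p = 0.00011) and at least 1.31-fold by the other (adjusted p = 0.00174). Both probes passed the detection filter through the vehicle arrays alone and so had to differ, so these p-values are no support. Both genes were thus detected in vehicle livers and in no tunicamycin liver.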
